A study of Mus musculus with 21 samples.

Results

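The regions described here are 500 bp stretches of the mouse genome that were open in all 3 libraries of VDR cells treated against Nfib (siNfib) and in none of the 6 libraries of VDR cells that received a control (siNC) or a treatment against Nfia (siNfia). A region counted as occupied in a library when one of the 100000 strongest peak summits of that library lay inside it. Of 270959 regions, 51160 were occupied in all 3 siNfib libraries, and 2242 of these met the rule, 0.827% of all regions. They are called siNfib-only regions below, which refers to these 9 libraries and to the strongest 100000 summits, since weaker summits and other libraries also touched them. They were chosen by the summit ranks of the siNfib, siNC and siNfia libraries, so the contrast between these groups is described without a test.

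The study used Omni-ATAC, in which a transposase cuts accessible DNA, on 7 groups of 3 libraries. VDR is labelled as a mouse medulloblastoma line, and its 4 groups were untreated, siNC, siNfia and siNfib cells. The labels call the reagents siRNA, whereas the names of the deposited lists have the prefix sh. The kind of reagent is therefore uncertain, and neither dose nor time is stated. The other 9 libraries held EGFP-positive cells sorted from cerebella that carry Atoh1-EGFP, a reporter of the granule lineage: granule neuron progenitors (GNP) of postnatal day 7, titled with the prefix Ptch1 and of unstated genotype, hyperplasia of postnatal day 28, and tumors with no age given. VDR libraries are cultured cells of 1 line, and the labels do not say whether replicates were separate cultures or animals, so p-values measure the spread between libraries, which may be technical. The lists give open chromatin and no RNA or protein, so whether Nfib itself fell cannot be checked in them. Between 12 and 21 regions assigned to Atoh1 were occupied in each siRNA library.

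Nfia and Nfib belong to the nuclear factor I (NFI) family, transcription factors that bind a palindromic DNA element as dimers and can also bind a single arm of it, here called the short site. In the developing cerebellum they take part in the maturation of granule neurons. Sonic hedgehog medulloblastoma arises from the progenitors of these neurons. An open region marks DNA free of tightly packed nucleosomes, often a promoter near the start of a gene or a distal regulatory element.

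No genome sequence was used here, so sequence could be read only where a RefSeq promoter window (250 bases before to 50 bases after a start site, build GRCm38.p6, which is mm10) lay wholly inside a siNfib-only region. Of the 2242 regions, 38 overlapped such a window and 14 held a whole one, which belonged to 15 genes, 5 of them protein-coding. Those 5 promoters are printed because each is a gene start inside a region that met the rule. They run 5′ to 3′ on the strand of the gene, and capitals mark matches to short motifs on either strand. Ptprg, a receptor tyrosine phosphatase, lies on the plus strand (chr14:12189693-12189992), and this start is inside the gene body, 52142 bp from the nearer gene end. Eml1, a microtubule-associated protein, is on the plus strand (chr12:108410383-108410682), also with an internal start. Frzb, a secreted Wnt antagonist, is on the minus strand (chr2:80447347-80447646), Tecta, the alpha-tectorin of the inner ear, on the minus strand (chr9:42401641-42401940), and Angptl1, a secreted angiopoietin-like protein, on the plus strand (chr1:156838773-156839072).
Ptprg: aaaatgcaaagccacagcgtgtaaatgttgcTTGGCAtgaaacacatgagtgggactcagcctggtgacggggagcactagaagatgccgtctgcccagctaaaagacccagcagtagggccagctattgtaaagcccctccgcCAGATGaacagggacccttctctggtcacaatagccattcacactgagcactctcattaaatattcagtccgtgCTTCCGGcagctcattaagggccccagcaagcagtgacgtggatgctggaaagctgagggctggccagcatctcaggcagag
Eml1: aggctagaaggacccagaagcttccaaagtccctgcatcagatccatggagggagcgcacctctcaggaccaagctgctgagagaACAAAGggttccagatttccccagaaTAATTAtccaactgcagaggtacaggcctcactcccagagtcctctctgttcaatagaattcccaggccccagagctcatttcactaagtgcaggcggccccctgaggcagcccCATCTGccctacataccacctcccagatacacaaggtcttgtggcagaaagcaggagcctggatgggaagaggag
Frzb: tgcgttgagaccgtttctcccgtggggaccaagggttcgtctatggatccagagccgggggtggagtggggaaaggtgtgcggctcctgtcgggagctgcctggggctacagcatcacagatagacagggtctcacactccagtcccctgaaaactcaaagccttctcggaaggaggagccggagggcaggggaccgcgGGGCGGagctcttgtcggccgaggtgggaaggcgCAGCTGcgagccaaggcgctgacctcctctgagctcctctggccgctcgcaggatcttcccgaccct
Tecta: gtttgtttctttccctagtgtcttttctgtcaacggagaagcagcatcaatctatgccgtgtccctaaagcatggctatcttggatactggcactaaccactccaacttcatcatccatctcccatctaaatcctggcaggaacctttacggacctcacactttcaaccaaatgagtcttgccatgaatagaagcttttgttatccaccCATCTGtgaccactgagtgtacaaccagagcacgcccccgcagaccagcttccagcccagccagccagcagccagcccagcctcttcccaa
Angptl1: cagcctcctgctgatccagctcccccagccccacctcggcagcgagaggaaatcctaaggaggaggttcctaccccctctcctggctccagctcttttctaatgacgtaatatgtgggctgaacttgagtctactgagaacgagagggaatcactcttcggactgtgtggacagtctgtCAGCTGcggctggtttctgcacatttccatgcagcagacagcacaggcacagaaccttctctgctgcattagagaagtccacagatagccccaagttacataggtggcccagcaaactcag
The short NFI site TTGGCA was found in 1 of the 15 promoters, that of Ptprg, and in 14.1% of 32851 RefSeq promoter windows. The full palindromic NFI site was found in 0 of 15, and in 0.0365% of all windows. The E-box CAGATG, of the type bound by Atoh1 and NeuroD factors, was present in 5 of 15 (Ptprg, Eml1 and Tecta among them) against 17.2% of all windows. The E-box CAGCTG was likewise in 5 of 15 (Frzb and Angptl1 among them) against 16.3%, though 2 of the 5 are the same site in overlapping windows of noncoding genes. The GC box GGGCGG was in 2 of 15, Frzb included, against 35.7%. The AP-1 site TGANTCA was in 2 of 15, against 7.81%, and these are the same 2 overlapping windows, which share this site too. Matches to CCGGAAG (ETS), ACAAAG (Sox) and TAATTA (homeobox) were present in 1, 3 and 2 of 15, against 8.86%, 18.7% and 5.29% of all windows. These are matches of letters in a few promoters, and nothing about binding was measured.

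The 5 promoters had different histories in the libraries that the rule did not use. The Ptprg start ranked 13550, 12113 and 17260 in the siNfib lists. It was occupied in all 9 primary libraries and in no untreated VDR library. The Frzb start ranked 63152, 45276 and 71120 in the siNfib lists, and it too was occupied in all 9 primary libraries and in no untreated VDR library. The Tecta start was occupied in 3 of 3 hyperplasia and 3 of 3 tumor libraries but in 1 of 3 GNP libraries. The Eml1 start was occupied in 2 of 3 GNP, 1 of 3 hyperplasia and 1 of 3 tumor libraries, and the Angptl1 start in 3, 2 and 2 of 3. The Tecta, Eml1 and Angptl1 starts were each also occupied in 1 of 3 untreated VDR libraries.

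At the siNfib-only regions the siNfib summits were of middling strength. Within their own lists the 2242 regions ranked at a median of 58942, 59583 and 63451 in siNfib replicates 1, 2 and 3, where rank 1 is the strongest summit. The other 48918 regions occupied in all siNfib libraries had a median mean rank of 34685, against 62548 for the siNfib-only regions. Peaks with several summits held 37.6%, 35.3% and 53.5% of the siNfib-only summits, against 68.3%, 67.7% and 81.7% of all kept summits of the same lists. Under the same rule, 332 regions were occupied only in siNC (0.123% of all regions) and 491 only in siNfia (0.181%), against 0.827% for siNfib. The siNfib libraries resembled each other more than those of the other groups. Their mean share of common regions (Jaccard index) was 0.740, against 0.614 within siNC and 0.631 within siNfia. Between libraries of different groups the mean was 0.6 for siNC with siNfia, and 0.595 for siNfib with either. The siNC and siNfia libraries thus agreed little more within their group than between groups. The strength of the lists also differed in part between the groups: the score at rank 100000, a −log10 value given by the authors' peak caller, was 8.25, 8.36 and 17.4 in siNfib, 4.95, 5.96 and 9.61 in siNC, and 5.50, 5.03 and 7.23 in siNfia. All siNfib lists were above the siNfia lists, and siNC replicate 3 was above siNfib replicates 1 and 2. The parts of list strength and of the agreement between replicates in the numbers of regions that met the rule were not tested.

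Many of these regions still held a weaker summit in the comparison groups. In the whole lists, which go below rank 100000, a summit inside the region was listed for 404 (18.02%), 747 (33.3%) and 925 (41.3%) of the 2242 regions in siNC replicates 1, 2 and 3. The siNfia lists had one for 531 (23.7%), 385 (17.2%) and 568 (25.3%). Replicate 3 of siNC and replicate 3 of siNfia, which had the highest score at rank 100000 of their groups, also had the largest shares. The median rank of these weaker summits lay between 133758 and 153498. In 675 regions (30.1%) none of the 6 whole lists had a summit, and in 16 (0.714%) all 6 did.

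**Figure D1:**
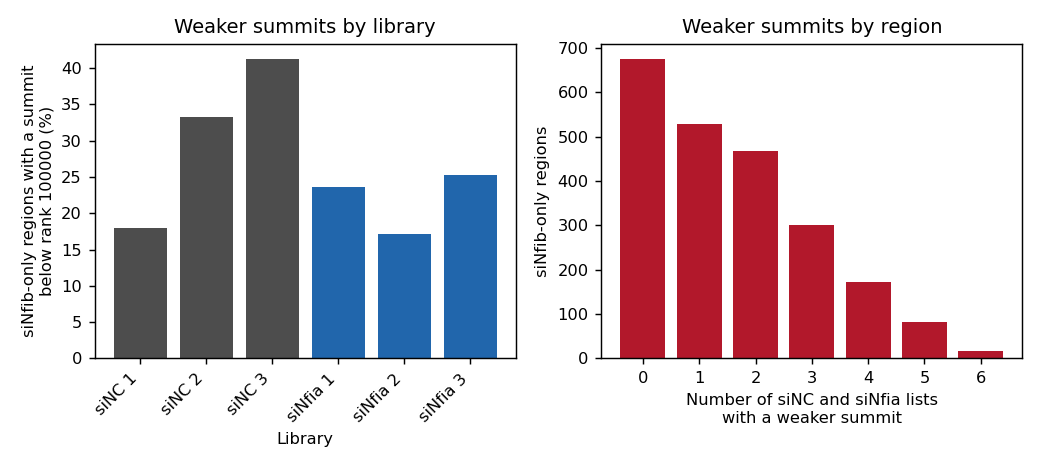
Left, the share of the 2242 siNfib-only regions that hold a summit below rank 100000 in each siNC (dark) and siNfia (blue) library, in percent. Right, the number of regions by how many of the 6 lists hold such a summit. The shares run from 17.2% to 41.3%, and 675 regions have no summit in any of the 6 lists.

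The weakest siNfib summit of 510 regions ranked between 90001 and 100000, and 504 further regions were left out only because theirs ranked between 100001 and 110000. The strongest siNC or siNfia summit of 358 regions ranked between 100001 and 110000, and 435 regions were left out by a single such summit of rank 90001 to 100000. A strong siNC or siNfia summit lay within 750 bp of the centre of 398 regions (17.8%), while 1762 (78.6%) had none within 1000 bp and 1125 (50.2%) none within 5000 bp. With 50000 summits per list 1362 regions met the rule and 433 of the 2242 (19.3%) were still among them, and in the whole lists 4515 met it and 675 (30.1%) were still among them.

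The strongest siNfib-only regions show what the rule selected. The first was intergenic, at chr6:143367794-143368293, 159498 bp from Etnk1, and ranked 2669, 1907 and 3226 in the siNfib lists. Summits at rank 103138 and 113228 were listed there in siNC replicates 2 and 3, and at rank 123919 and 122079 in siNfia replicates 2 and 3. In the other 12 libraries it was occupied only in untreated VDR replicate 1. The second lay in Mrps28, a mitochondrial ribosomal protein gene (chr3:8866129-8866628), and ranked 2833, 3465 and 5045. It was occupied in all hyperplasia and all tumor libraries and in no GNP or untreated VDR library. A weaker summit was listed there in 3 of the 6 siNC and siNfia lists. The third lay in Ppard, a nuclear receptor gene of lipid metabolism (chr17:28294654-28295153), at ranks 4526, 3104 and 4109. It was occupied in 8 of 9 primary libraries and in 2 of 3 untreated VDR libraries. In 4 of the 6 siNC and siNfia lists it had a weaker summit. The fourth lay in Tle1, which encodes a Groucho-type corepressor (chr4:72160151-72160650). It ranked 3491, 4740 and 4991 in siNfib, had no summit at any rank in the 6 siNC and siNfia lists, and was occupied in all 9 primary libraries, at ranks 9446, 10257 and 11395 in GNP. A region in Stat4, a cytokine-signalling transcription factor, ranked 6105, 7470 and 5889. It was occupied in 3 of 3 GNP, 2 of 3 hyperplasia, 1 of 3 tumor and 1 of 3 untreated VDR libraries. Weaker summits were listed there in 3 of the 6 siNC and siNfia lists.

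Other strong regions with no summit in the 6 whole lists differed from Tle1 in where else they were open. The one in Usp25, a deubiquitinase gene, ranked 7149, 8316 and 7554 in siNfib and was occupied in all hyperplasia and all tumor libraries but in no GNP library. The one in Hdac4, a class II histone deacetylase gene, ranked 12234, 12231 and 10748 and was occupied in the 3 hyperplasia libraries alone. Regions in Enthd1 (all hyperplasia libraries and 1 tumor library) and 33126 bp from Daam1, a formin of Wnt planar polarity signalling (2 hyperplasia libraries), were also found in hyperplasia and in no GNP library. Those in Nckap5 and Adam12, a cell-surface metalloprotease gene, and an intergenic one 204981 bp from Epha6 were occupied in none of the other 18 libraries.

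The strongest regions occupied in no other library of the study lay in Pde1c, a calcium-dependent phosphodiesterase gene (chr6:56076444-56076943), and in Frem1, an extracellular matrix gene (chr4:83045161-83045660). The Pde1c region ranked 4861, 4750 and 4545 in siNfib, and its strongest weaker summit, in siNfia replicate 3, ranked 100617, just short of being counted. The Frem1 region ranked 5174, 4446 and 7061, and a single weaker summit was listed, at rank 119748 in siNfia replicate 3. A further region of this kind lay in Arid1b (ranks 5113, 6914 and 10264), and at that region 5 of the 6 siNC and siNfia lists held a weaker summit.

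At the other extreme, several regions absent from the strongest siNC and siNfia summits were open in all primary libraries. Lmo7, Ptprg, Smpd3 and Thsd4 each held one, and so did an intergenic stretch 123107 bp from the Hedgehog target Mycn (chr12:12812736-12813235), which ranked 4204, 3432 and 4770 in GNP. The region in Hk2, the hexokinase of aerobic glycolysis (chr6:82737112-82737611), ranked 14910, 20207 and 17651 in siNfib. Its ranks were 72379, 61525 and 78008 in the GNP lists, 13729, 9475 and 4181 in hyperplasia, and 1410, 1470 and 1733 in tumor. These 3 sets of ranks do not overlap, but ranks are positions within lists that differ in length and strength. The Thsd4 region separated too, in another order. Its ranks were 64453, 68366 and 76011 in GNP, 8889, 8146 and 6438 in hyperplasia, and 17527, 25508 and 17312 in tumor. How many siNfib-only regions separate by stage was not counted, so no trend is drawn from Hk2. The Hk2 region was also occupied in 2 of 3 untreated VDR libraries, at ranks 67914 and 33848. In 5 of the 6 siNC and siNfia lists the Hk2 region had a weaker summit, the strongest at rank 102964.

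The 12 libraries outside the rule allow the regions to be compared with other sets. Over the 9 primary libraries, 1116 of the 2242 regions (49.8%) were occupied in none, 902 in 1 to 8 and 224 (9.99%) in all 9. Of all 270959 regions, 58.4% were in none and 14.85% in all 9. Of the other regions open in all siNfib libraries, 8.83% were in none and 59.8% in all 9. The siNC-only regions were divided more evenly, 26.8% in none and 28.01% in all, and 72.3% of the siNfia-only regions were in none and 2.65% in all. In all, 918 siNfib-only regions (40.95%) were occupied in none of the 12 libraries outside the rule, and so in no other library of the study. The share in none of these 12 libraries was 13.6% for all regions and 4.58% for the other siNfib regions. It was 18.4% for the siNC-only and 60.9% for the siNfia-only regions. All these shares count only the strongest 100000 summits of each list. In the whole lists, each primary library had a summit in 48.2% to 63.8% of the siNfib-only regions. Each untreated VDR library had one in 15.0% to 20.4% of them.

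**Figure D2:**
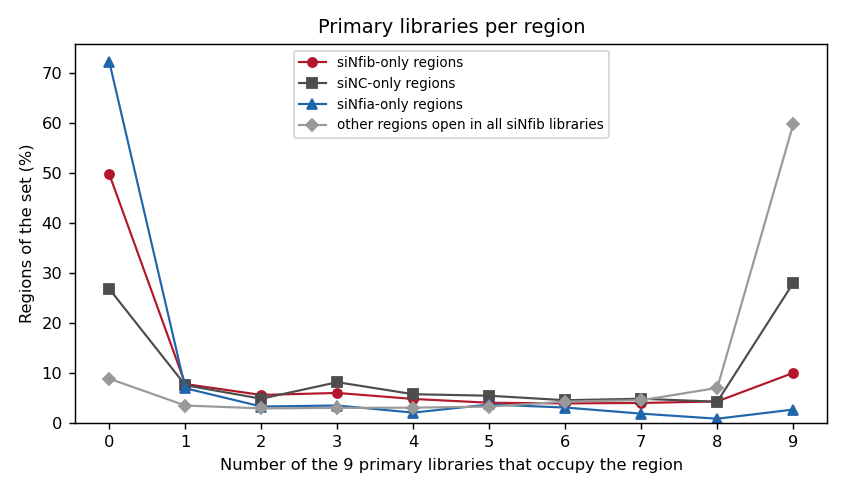
The share of each set of regions, in percent, by the number of the 9 primary libraries that occupy the region, for siNfib-only, siNC-only, siNfia-only and other siNfib regions. The siNfib-only regions are most frequent at 0 libraries (49.8%), with a smaller peak at 9 (9.99%), between the siNfia-only regions (72.3% at 0) and the siNC-only regions (26.8% at 0).

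Per library, 29.8%, 30.4% and 25.7% of the siNfib-only regions were occupied in GNP replicates 1, 2 and 3. The share was 28.9%, 29.0% and 29.5% in hyperplasia and 23.8%, 25.7% and 28.4% in tumor. The stages overlapped. Their means were 28.6% ± 2.52 for GNP, 29.1% ± 0.355 for hyperplasia and 26.0% ± 2.31 for tumor libraries (SD, n = 3 each), and tumor differed from GNP by -2.65 percentage points. The 3 stages did not pass the test (exact permutation test over 1680 arrangements, p = 0.175, adjusted p = 0.175 over the 4 tests of this section). Tumor against GNP alone has no p of its own. The test of the 3 stages passed with 150000 summits per list (exact permutation p = 0.0429, tumor minus GNP -2.68 points) and without GNP replicate 3 (exact permutation p = 0.0429, -4.10 points), and its p ran up to 0.582 under the other alternatives.

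Primary libraries held a smaller share of the siNfib-only regions than of the siNC-only regions, 42.5% to 53.6% of which were occupied, and a larger share than of the siNfia-only regions, with 9.78% to 14.1%. The difference from the siNC-only regions was -20.8 points and had this sign in 9 of 9 libraries (exact two-sided sign-flip permutation p = 0.00391, the smallest that 9 libraries allow, adjusted p = 0.00606). The difference from the siNfia-only regions was 15.5 points, also of 1 sign in 9 of 9 libraries (exact two-sided sign-flip permutation p = 0.00391, adjusted p = 0.00606). The regions are the same in every library, so these p-values cover the spread between libraries only. The size of the first difference depended on which siNC libraries defined the sets: it was -12.6, -11.2 and -3.94 points without siNC replicate 1, 2 or 3. It was also -33.9 with 50000 summits per list, -32.1 with summits of a score of at least 10 and -8.63 in the whole lists, and the second difference was 27.6 with a score of at least 10.

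Untreated VDR cells, the same line without any reagent, occupied 11.2%, 9.77% and 12.2% of the siNfib-only regions, below every primary library. The difference from the primary libraries was -16.9 points (exact two-sided permutation test, 3 against 9 libraries, p = 0.00455, the smallest possible, adjusted p = 0.00606). The untreated VDR lists stood apart in quality, with a score at rank 100000 of 3.76 to 3.97 and 10.3% to 14.5% of kept summits in peaks with several summits, against 9.26 to 28.9 and 61.5% to 77.3% in the primary lists. They also held fewer of the other regions open in all siNfib libraries, 52.2% to 64.0% against 76.4% to 78.9% in primary libraries. The same held for the siNC-only regions, 19.6% to 24.4% against 42.5% to 53.6%. For the siNfia-only regions it was 4.89% to 8.15% against 9.78% to 14.1%. Of all regions they held more, 29.6% to 30.0% against 25.6% to 26.6%. The part of list quality in the difference of -16.9 points was not tested. All 3 untreated libraries occupied 34 of the 2242 regions (1.52%), and 1692 (75.5%) were in none. Of all regions 7.95% were in all 3 and 35.5% in none, and of the other siNfib regions 37.97% and 20.5%. For the siNC-only regions these shares were 6.325% and 57.2%, and for the siNfia-only regions 0.407% and 82.5%. The difference between untreated VDR and primary libraries was -7.91 points with 50000 summits per list, -39.5 with summits of a score of at least 10 and -27.2 in the whole lists.

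**Figure D3:**
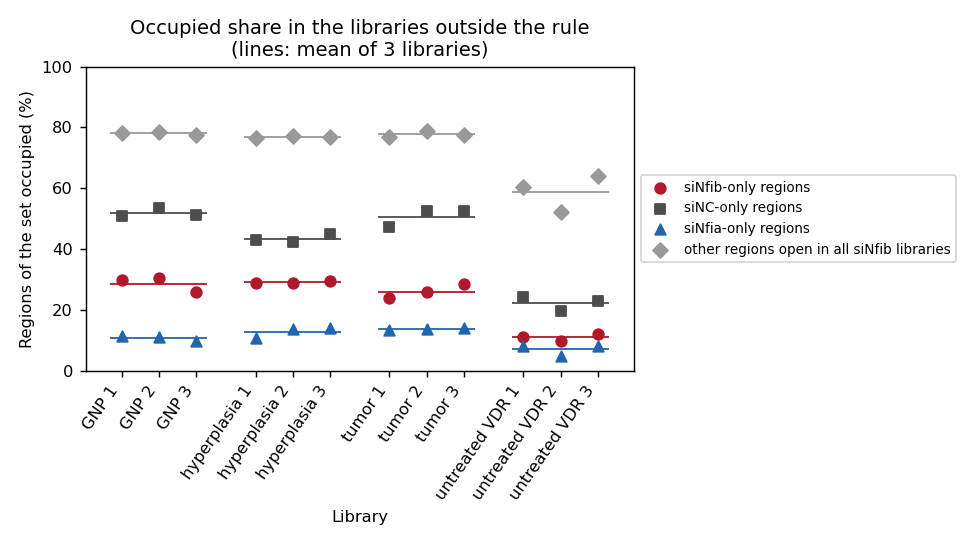
The share of each set of regions occupied in each of the 12 libraries outside the rule, in percent, with a line at the mean of each group of 3. The siNfib-only regions lie between 23.8% and 30.4% in primary libraries, below the siNC-only and above the siNfia-only regions in every one, and between 9.77% and 12.2% in untreated VDR libraries.

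A few siNfib-only regions also differed between the stages of tumor formation, by being occupied in 3 of 3 libraries of one stage and 0 of 3 of the other. Hyperplasia gained 87 of the 2242 against GNP (3.88%, against 1.82% of all 270959 regions and 1.62% of the other siNfib regions) and lost 80 (3.57%, against 1.71% and 1.55%). Tumor gained 51 against GNP (2.27%, against 1.76% and 1.88%) and lost 94 (4.19%, against 1.63% and 1.33%). From hyperplasia to tumor 20 were gained (0.892%, against 0.697% and 0.787%) and 46 lost (2.05%, against 0.778% and 0.568%). No single region can pass a test here, since 3 against 3 libraries cannot go below p = 0.1 in an exact test. A region in 0 or in all 9 primary libraries cannot be counted as gained or lost. Such regions made up 49.8% and 9.99% of the siNfib-only regions and 58.4% and 14.85% of all regions. They made up 8.83% and 59.8% of the other siNfib regions. The percentages of this paragraph are not adjusted for this. Regions occupied in all GNP libraries and no other primary library numbered 49 (2.19%, against 0.884% of all regions and 0.507% of the other siNfib regions). Those in hyperplasia alone numbered 26 (1.16%, against 0.459% and 0.204%), and those in tumor alone 6 (0.268%, against 0.29% and 0.225%). The 49 included the region near Nhlh2 (chr3:102025113-102025612), a transcription factor gene of newly formed neurons, and one in the long neuronal gene Auts2 (chr5:131513718-131514217).

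Most siNfib-only regions were far from gene ends. A gene body held 56.3% of them, close to the 56.0% of all regions and the 57.8% of the other regions open in all siNfib libraries. Only 4.15% lay within 1 kb of either end of a protein-coding gene, against 31.5% of the other siNfib regions, 8.13% of siNC-only, 5.50% of siNfia-only and 11.9% of all regions. The median distance to a gene end was 33372 bp, against 6270 bp for the other siNfib regions, 26471 bp for siNC-only and 31530 bp for siNfia-only regions. For all regions it was 17173 bp. Within 100 kb there was no protein-coding gene for 14.0% of the siNfib-only regions. The share was 10.9% for all regions, 6.39% for the other siNfib regions, 12.05% for siNC-only and 18.9% for siNfia-only regions. The 1116 regions in no primary library (median 36142 bp) and the 224 in all of them (35201 bp) lay at similar distances. These positions are descriptions, and the stronger summits of the other siNfib regions go with them, since median rank differed between the sets as given above.

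**Figure D4:**
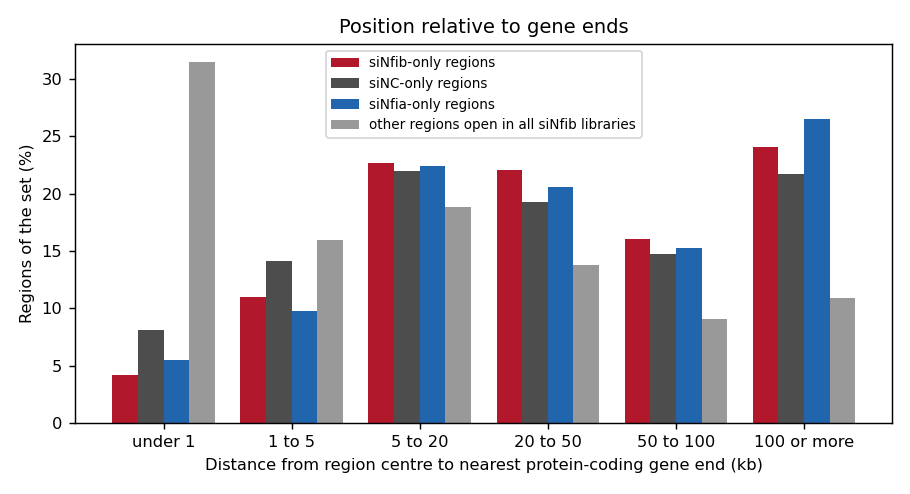
The share of each set of regions, in percent, by the distance from the region's centre to the nearest end of a protein-coding gene, in kb. Within 1 kb lie 4.15% of the siNfib-only regions and 31.5% of the other regions open in all siNfib libraries, and 8.13% of the siNC-only and 5.50% of the siNfia-only regions.

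The regions were spread over the genome. They made up between 3.22% (chromosome 19) and 5.38% (chromosome 5) of the siNfib regions of each autosome and the X chromosome, and 0 of 28 on the Y, against 4.38% in all. Another siNfib-only region lay within 20 kb of 324 of them (14.5%), in 135 pairs and 17 runs of 3 or more. Runs of 3 lay in Tle1, in the phosphatase gene Ptprd and in Rftn1, and a run of 4 in Snd1.

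The 1929 regions that could be assigned to a protein-coding gene fell on 1484 genes, or 10.7% of the 13900 genes with any region open in all siNfib libraries. They made up 4.04% of the 47721 siNfib regions with a gene. A single region was assigned to 1172 genes, 2 to 229 genes and 3 or more to 83. These were long genes, with a median length of 74.4 kb for genes with at least 1 siNfib-only region, 397 kb for those with 4 or more, and 22.8 kb for genes with siNfib regions and none of these. The counts by gene are not adjusted for length.

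Auts2, a neurodevelopmental gene linked to autism, had the most, with 8 siNfib-only regions among 44 regions open in all siNfib libraries. Of these 8, between 2 and 5 were occupied in each primary library and 0 or 1 in each untreated VDR library. Agap1, a GTPase-activating protein of membrane traffic, had 7 of 33. None of the 7 was occupied in any primary library, and 6 had no summit in the 6 whole siNC and siNfia lists. Arid1b, a subunit of the BAF chromatin remodelling complex, had 6 of 30, and unlike those of Agap1 between 1 and 4 of its 6 were occupied in each primary library.

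Nrxn3, a presynaptic adhesion molecule, had 6 of 28, of which 5 were in no primary library and 1 (chr12:89041591-89042090) in all of them. Ptprd, a receptor phosphatase of synapse formation, had 6 of 36, and Adgrl3, an adhesion receptor of the latrophilin family, 4 of 13. Sox5, a SoxD transcription factor gene of neuronal and glial development, had 5 of 19. Its 5 were occupied 2, 1 and 1 times in the GNP libraries, 0 times in hyperplasia and once in 1 tumor library.

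Among the remaining genes, Rftn1, which encodes a lipid raft protein, had 6 of 21. Gse1 (5 of 112), Ptprn2 (5 of 26), Snd1 (5 of 22), Trappc9 (5 of 25) and 1700025G04Rik (4 of 21) completed the 12 genes named for the most. The last of these was taken in order of symbol from 19 genes that had 4. Gse1 is an exception in share, since its 5 are 4.46% of its siNfib regions, close to the 4.04% over all genes. The highest shares, among genes with at least 4, were in Diaph3, a formin gene, and Oxct1, which encodes an enzyme of ketone body use, with 4 of 9 each (44.4%). The 4 in Diaph3 were occupied 1, 2 and 2 times in the GNP libraries and 0 times in every hyperplasia, tumor and untreated VDR library. Cyrib, a Rac regulator, Exoc4, an exocyst subunit, Gramd4 and Sash1 had 4 of 12 each. None of the 4 in Cyrib was occupied in a primary library, while 1 or 2 of those in Gramd4 were in every library of the 12.

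**Figure D5:**
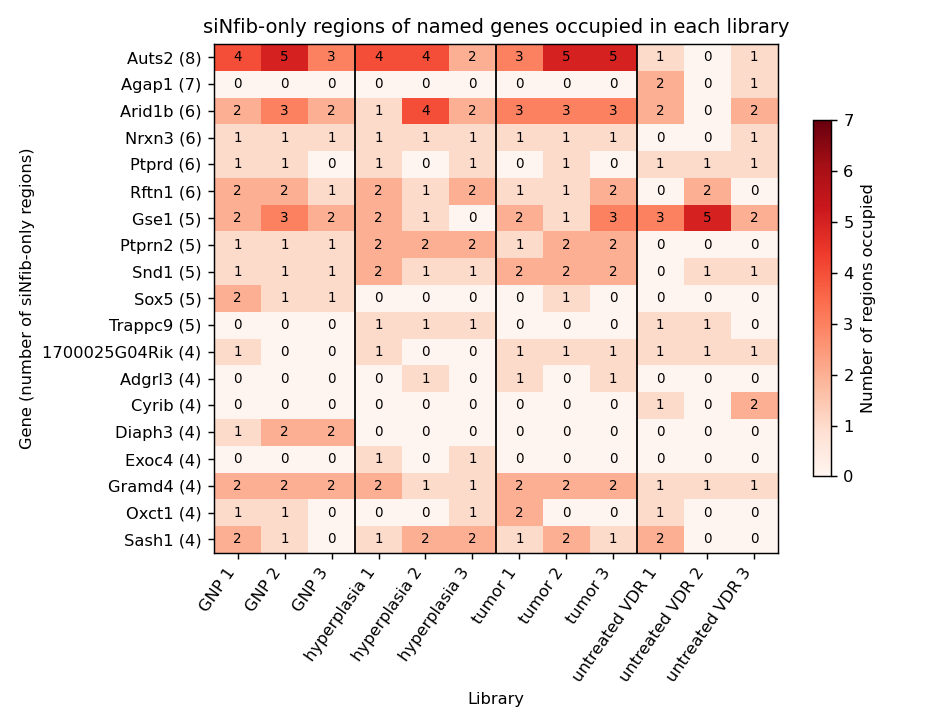
For the 19 named genes (rows, with their number of siNfib-only regions in brackets), the number of those regions occupied in each of the 12 libraries outside the rule (columns). Auts2 and Arid1b have occupied regions in every primary library, Agap1 and Cyrib have 0 in all 9, and Diaph3 has them in GNP libraries alone.

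Genes of the lineage and of the pathways of this tumor were read from lists, as counts beside the 4.04% of all siNfib regions with a gene. The NFI family had 3 of 124 siNfib regions (2.42%). One lay in Nfib itself (chr4:82362242-82362741), at ranks 85306, 59616 and 97243, with a weaker summit in 5 of the 6 siNC and siNfia lists, and it was occupied in none of the other 12 libraries. Of 47 regions of Nfib open in all siNfib libraries this was the only one that met the rule. The other 2 were in Nfix, and the 1 at chr8:84799533-84800032, 1455 bp from a gene end, was occupied in all 9 primary libraries. Nfia and Nfic had none.

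Hedgehog genes had 4 of 159 (2.52%). Disp1, which releases the ligand from the cell, had 2, Gli2, the main transcriptional activator of the pathway, had 1 at 65996 bp from the gene, and the target Mycn had 1 at 84287 bp. The Gli2 region (chr1:118767815-118768314) was in no primary library and in all 3 untreated VDR libraries, and 5 of the 6 siNC and siNfia lists held a weaker summit there. The Mycn region was in 2 of 3 GNP libraries and in no hyperplasia or tumor library. Granule progenitor genes had 3 of 158 (1.90%), 1 each at Atoh1, which specifies the lineage, the homeobox gene En2 and Mycn. The Atoh1 and En2 regions were in no primary library.

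Genes of granule neuron differentiation had 14 of 221 (6.34%), on 9 of the 27 genes in the list. The axon guidance receptors Robo1 and Robo2, the semaphorin receptor Plxna2 and the adhesion molecules Cntn1 and Nrcam had 2 each. Dcx, a microtubule-binding protein of migrating neurons, Nhlh2, Rbfox3, which encodes the neuronal marker NeuN, and Sema6a had 1 each. A Robo2 region (chr16:74375620-74376119) ranked 16977, 10048 and 13160 in siNfib and was in 1 GNP library, with weaker summits in 4 of the 6 lists. A Cntn1 region (chr15:92087597-92088096) ranked 11712, 16082 and 16755 and was in all GNP, all hyperplasia and 1 tumor library, and the other Cntn1 region adjoins it. Both Nrcam regions, both Robo1 regions and the other Robo2 region were in no primary library, whereas the region near Dcx was in 7 of 9. The list holds long genes such as Robo1 and Robo2, and its share was not tested.

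Chromatin regulators had 7 of 83 (8.43%), but 6 of the 7 were in Arid1b and the other in Chd7, a chromatin remodeller of granule progenitors. The Chd7 region was in all 9 primary libraries. Notch genes had 5 of 118 (4.24%), in the coactivators Maml2 and Maml3 (2 each) and near the ligand Dll1. Wnt genes had 4 of 132 (3.03%), TGF-beta and BMP genes 2 of 85 (2.35%), and Hippo genes 2 of 53 (3.77%), both in the DNA-binding factor Tead1. Neural stem and glial progenitor genes had 1 of 57 (1.75%), near Pdgfra.

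Lists without any siNfib-only region were those of AP-1 and immediate early genes (0 of 66 siNfib regions), the cell cycle (0 of 58), tumour suppressors (0 of 75) and the interferon and viral RNA response (0 of 25). These lists are short, and their shares were not tested. Markers of other cell types of the cerebellum had 2 of 31 for astrocytes (Slc1a2 and Slc1a3), 1 of 16 for oligodendrocytes (Mbp), 2 of 21 for endothelium (Cdh5 and Tek), 1 of 20 for Purkinje cells and interneurons (Rora), 0 of 9 for microglia and 0 of 19 for fibroblasts. These counts are of regions near genes, not of expression.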

How the data were processed

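Open chromatin was measured by Omni-ATAC in 21 mouse libraries. Each deposited file lists the peak summits of 1 library with a score, read as the −log10 of a p- or q-value (which of them is not stated). Per the submitters' processing notes, the authors used MACS2, Picard and Bowtie2, and the build was mm10. Versions, read filters, read shifting and the calling threshold are not given in the sources used here, read depth is unknown, and so no counting interval is given. Scores were used to rank summits within a list.

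The 100000 strongest summits of each list were pooled by rank into regions of 500 bp (Python 3.11.15, numpy 2.4.6, pandas 2.3.3), and the pooling was tested on simulated lists. Each region was assigned to the smallest RefSeq GRCm38.p6 protein-coding gene body holding its centre, or else the nearest within 100 kb (21887 genes, no strand). RefSeq promoter windows exist for 17492 of these genes. Shares of occupied regions were compared over libraries by exact permutation tests, with Benjamini-Hochberg adjustment over 4 tests. Named were the 12 genes with the most siNfib-only regions, the 8 with the highest share among genes with at least 4, and the 8 regions with the best mean siNfib rank among all of them, among those with no summit in the 6 whole lists, among those in none of the other 18 libraries and among those in all 9 primary libraries. Genes of the lists and promoters wholly inside a region were named too. The members, gene lists and tests were chosen with earlier results of these data known. Regions named beyond these choices were picked after their values were seen. A few regions chosen by these rules are not reported here.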

Additional observations from a re-analysis of the deposited data

How the results depend on the processing

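The number of siNfib-only regions was 1362 with 50000 summits per list, 3554 with summits of a score of at least 10, 4515 in the whole lists and 675 where no summit of the 6 whole siNC and siNfia lists was allowed. It ranged from 1844 to 3011 under the other alternatives that left out no library, and from 2465 to 2939 with 1 siRNA library left out. Of the 2242 regions, 1679 (74.9%) remained at a score of at least 10, 1134 (50.6%) with 150000 summits per list and 2203 (98.3%) when regions were pooled without the untreated VDR lists, an alternative chosen after seeing the data. Tumor minus GNP was -2.68 points with 150000 summits per list, where the test of all 3 stages gave an exact permutation p of 0.0429, and with 1 library left out it ranged from -4.10 (without GNP replicate 3) to -1.56. The difference from siNC-only regions ranged from -21.9 to -3.94 points with 1 library left out and from -33.9 (50000 summits per list) to -8.63 (whole lists) under the other alternatives. That from siNfia-only regions ranged from 13.5 to 16.5 with 1 library left out and up to 27.6 (score of at least 10) otherwise, and that between untreated VDR and primary libraries from -18.6 to -15.7 with 1 library left out and from -39.5 to -7.91 otherwise. These 3 differences kept their direction and stayed below 0.05 before adjustment under all alternatives run. The cause of these shifts was not tested. Deviations of same-numbered libraries correlated only weakly, between -0.0092 and 0.006 in the primary stages and between 0.000965 and 0.0225 in the siRNA groups. In each siRNA group replicate 3 had the highest score at rank 100000 (9.61 in siNC, 7.23 in siNfia and 17.4 in siNfib). Whether libraries of the same number shared a batch is not stated and was not tested. With replicate number as a block the test of all 3 stages gave an exact permutation p of 0.306 (tumor minus GNP -2.65 points, as without the block). Unknown read depth limits what an absent summit shows.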
